A study of Mus musculus with 9 samples.

Results

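The genes described here serve protein folding in the endoplasmic reticulum (ER) and the unfolded protein response. They are 36 genes named by symbol: 11 chaperones and co-chaperones, 4 disulfide isomerases, 4 sensors and transcription factors, 7 genes of ER-associated degradation, 7 genes of the translocon and its associated proteins, and 3 signal peptidase subunits. Each was looked up by its Ensembl identifier in the count table through the GENCODE M21 annotation (GRCm38). All 36 were found among 54281 genes, and all 36 passed the filter on low counts with 15713 genes in total. The rule that names them uses no measured value, although the genes were chosen with earlier results of these data known. RNA was sequenced from lung macrophages, washed and massaged out of the airspaces of wild type female mice of 12 wk. The mice had breathed air (n = 3) or ozone, an oxidant gas, at 0.8 ppm for 3 h, and the ozone mice were killed 24 h (n = 3) or 72 h (n = 3) after exposure. A time for the air mice is not given in the labels, so 1 set of air libraries served both times.

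Proteins destined for secretion, for membranes or for lysosomes enter the ER through the Sec61 channel, lose their signal peptide there and are folded by chaperones such as BiP (Hspa5) and by disulfide isomerases. When unfolded protein builds up, the membrane sensors IRE1 (Ern1), PERK (Eif2ak3) and ATF6 are activated, and transcription factors including the spliced form of XBP1 raise the genes of the folding machinery. Proteins that fail to fold are passed back through the membrane and degraded. Lung macrophages depend on this route for their lysosomal enzymes, surface receptors and secreted proteins.

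The libraries held between 47095448 and 60248252 estimated counts. Defining genes of alveolar macrophages were abundant everywhere, with 18 markers summing to 34398 to 36868 CPM (counts scaled to a common library size) in air, 23626 to 32654 CPM at 24 h and 27297 to 32270 CPM at 72 h. Chil3 alone held most of each sum, at 22245 to 24837 CPM in air, 14809 to 21678 CPM at 24 h and 17886 to 21115 CPM at 72 h. The libraries 24 h replicate 2 and 72 h replicate 1 stood apart from the other 7. Their 12 B cell markers summed to 1659 and 1066 CPM (158 to 200.4 CPM in the other 7), and their 12 serous cavity macrophage markers summed to 661 and 862 CPM (6.34 to 11.0 CPM). The 10 plasma cell markers, from cells rich in ER, summed to 202 and 154 CPM (54.2 to 73.1 CPM). Of these, Pou2af1 was at 63.7 and 45.8 CPM, but Jchain at 7.09 and 1.21 CPM. Prdm1, at 20.0 and 24.3 CPM, was not above the range of the other 7. For the 10 T cell markers the sums were 611 and 83.7 CPM (6.78 to 24.6 CPM). The 10 neutrophil markers gave 193 and 167 CPM (62.3 to 86.3 CPM), and the 8 monocyte markers 273 and 188 CPM (19.4 to 41.8 CPM). Markers of red cells gave 2906 and 2505 CPM (12.2 to 855 CPM), and mitochondrial transcripts took 5.25% and 6.18% of counts (2.71% to 3.07%). No marker of these lists was at 0 in all of the other 7 libraries, and no list holds any of the 36 genes. The 13 alveolar epithelium markers summed to 76.6 to 86.4 CPM in air, 76.2 to 125 CPM at 24 h and 111 to 120.3 CPM at 72 h. Their highest sum was in 24 h replicate 2, where Napsa alone was at 101 CPM. Napsa was at 53.3 to 74.7 CPM in the others and took most of every sum in air. Cldn18 was at 0.571 to 0.981 CPM in air, 0.647 to 1.28 CPM at 24 h and 7.76 to 14.4 CPM at 72 h. The other epithelium markers were also above air in every 72 h library, except Napsa, Sftpc, Sftpa1 and Slc34a2, which overlapped. The part of these differences in the results was not tested. Results are given with and without 24 h replicate 2 and 72 h replicate 1, called the marker-bearing libraries here. Xist, the RNA of the inactive X chromosome, was at 2.42 CPM in air replicate 2 and at 887 to 1482 CPM in the others, against that mouse's label of female.

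In air, the folding machinery was expressed over a wide range. Levels between genes are given per length, as counts divided by merged exon length and scaled to the same sum in every library. On that scale Calr, the calcium-binding lectin chaperone calreticulin, was highest at 1034 ± 90.9 (SD, n = 3), followed by Hsp90b1, the ER form of HSP90, at 772 ± 65.7. The disulfide isomerases P4hb and Pdia3 came next at 685 ± 16.4 and 673 ± 50.8 per length, a pair closer together than their spread. Hspa5 stood at 575 ± 57.7, and Canx, the membrane lectin chaperone calnexin, at 486 ± 29.2; the means of these neighbours lay apart by about the sum of both SDs. Xbp1 was the only transcription factor in this upper range, at 401 ± 14.0. The 3 sensors were far lower on the same per-length scale, with 29.9 ± 1.38 for Eif2ak3, 27.3 ± 3.89 for Atf6 and 23.9 ± 1.69 for Ern1. Derl3, a derlin best known from secretory cells, was lowest at 1.32 ± 0.433. The median of the 36 genes over all libraries was 111 on this scale.

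Promoters of these genes are known for the ER stress response element (ERSE), bound by NF-Y and ATF6, so the RefSeq promoter windows (GRCm38.p6, 250 bases before to 50 after the start) were searched for it. RefSeq windows were matched for 29 of the 36 genes. The ERSE was searched as CCAAT and CCACG with 9 bases between them, on both strands, and was found in 9 of these 29 genes (31.0%) and in 0.119% of all 32851 windows. A shorter form, ERSE-II (ATTGG and CCACG with 1 base between them), was found in 2 genes (6.90%) and in 0.0365% of all windows. The letters TGACGTGG, the core of the element bound by XBP1, were in none of the 29 genes and in 0.676% of all windows, and the cyclic AMP response element TGACGTCA was in none of them and in 1.79%. None of these strings contains another, although the ERSE, the ERSE-II and the XBP1 core share the box CCACG. The genes Manf, Ssr2, Hyou1, Atf6, Derl1, Sec61a1 and Sec11c were not searched. The sites of the 11 genes with either element are printed to show what these 11 share, read 5′ to 3′ in the direction of the ERSE, with the fixed letters in capitals.
Hspa5 ERSE, chr2:34772025-34772043, gene on the + strand, site on the same strand: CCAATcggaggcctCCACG
Calr ERSE, chr8:84847075-84847093, gene on the - strand, site on the opposite strand: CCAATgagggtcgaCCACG
Derl3 ERSE, chr10:75893242-75893260, gene on the + strand, site on the opposite strand: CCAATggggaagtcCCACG
Hsp90b1 ERSE, chr10:86705638-86705656, gene on the - strand, site on the same strand: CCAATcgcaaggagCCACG
Hsp90b1 ERSE, chr10:86705533-86705551, gene on the - strand, site on the opposite strand: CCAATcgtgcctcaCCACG
Canx ERSE, chr11:50325800-50325818, gene on the - strand, site on the same strand: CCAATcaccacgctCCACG
Pdia6 ERSE, chr12:17266491-17266509, gene on the + strand, site on the same strand: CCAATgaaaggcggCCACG
Dnajc3 ERSE, chr14:118937827-118937845, gene on the + strand, site on the same strand: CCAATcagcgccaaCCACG
Creld2 ERSE, chr15:88819520-88819538, gene on the + strand, site on the opposite strand: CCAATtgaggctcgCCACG
Syvn1 ERSE, chr19:6046532-6046550, gene on the + strand, site on the same strand: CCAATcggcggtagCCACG
Herpud1 ERSE-II, chr8:94386377-94386387, gene on the + strand, site on the same strand: ATTGGgCCACG
Dnajb11 ERSE-II, chr16:22857852-22857862, gene on the + strand, site on the same strand: ATTGGcCCACG
Counted from the RefSeq start as position 1, the ERSE sites lay between -212 and -26. Hsp90b1 was the only gene with more than 1 ERSE. A match describes letters only, and no binding was measured in these libraries.

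The upstream sequences of Creld2, Pdia6 and Hsp90b1 show how the ERSE sits in its window. Of the 9 genes with an ERSE, 3 (Hspa5, Pdia6 and Creld2) were called lower at 72 h against 24 h, beside 14 of all 29 genes with a window. Creld2 and Pdia6 carry 1 site each, and Hsp90b1, which was not called, carries 2. Each is printed along the strand of its gene, up to the base before the first annotated start, with the fixed ERSE letters in capitals; CGTGG and ATTGG are the boxes of a site on the opposite strand.
Creld2, chr15:88819396-88819645, + strand: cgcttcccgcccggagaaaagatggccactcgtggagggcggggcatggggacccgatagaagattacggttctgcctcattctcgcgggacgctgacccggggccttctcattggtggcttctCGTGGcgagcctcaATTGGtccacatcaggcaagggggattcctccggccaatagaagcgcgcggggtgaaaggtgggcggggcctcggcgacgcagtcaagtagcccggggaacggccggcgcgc
Pdia6, chr12:17266339-17266544, + strand: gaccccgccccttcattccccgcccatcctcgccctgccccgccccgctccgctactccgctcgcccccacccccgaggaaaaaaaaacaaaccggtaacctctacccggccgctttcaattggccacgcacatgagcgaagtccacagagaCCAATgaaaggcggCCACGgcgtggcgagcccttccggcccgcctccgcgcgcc
Hsp90b1, chr10:86705510-86705694, - strand: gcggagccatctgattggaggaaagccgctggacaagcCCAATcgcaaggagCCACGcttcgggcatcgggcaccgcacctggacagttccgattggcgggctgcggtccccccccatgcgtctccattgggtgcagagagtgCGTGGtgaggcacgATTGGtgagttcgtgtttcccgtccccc

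The question of the comparison at 24 h is how the macrophages differ a day after ozone. No gene of the 36 passed the test there: edgeR's quasi-likelihood test, adjusted over all genes tested by Benjamini-Hochberg, called 0 of 36 at an adjusted p under 0.05. It called 0.00636% of all genes tested (1 gene, lower), or 0.0113% of genes averaging at least 10 CPM. At an unadjusted p under 0.05 there were 6 of the 36 genes, a share near that of all genes tested (2314 of 15713). DESeq2 called 3 of the 36 higher (Sdf2l1, Pdia4 and Ssr4) and limma voom called 0. Of all genes it tested, DESeq2 called 4.72% in either direction, 1.48% lower and the rest higher. The log2 fold change was above 0 for 25 genes and below 0 for 11 (47.5% of all genes were below 0), with a median of 0.08 beside 0.01 over all genes. All 24 h libraries lay above all air libraries for 7 genes and below them for 1, beside 10.4% and 9.06% of all genes tested. In bulk RNA, fewer cells of a type and less RNA per cell cannot be told apart. Here and below, SE follows each log2 fold change, and CPM are scaled by library size and composition.

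Sdf2l1 (chr16:17130138-17132383 in GRCm38), an ER protein that works with BiP's co-chaperones, had the smallest unadjusted p of the 36 genes at 24 h. Its level was 53.0, 46.9 and 53.0 CPM in the air libraries, 65.9, 64.3 and 70.4 CPM at 24 h, and 43.8, 45.4 and 43.2 CPM at 72 h. Every 24 h library was above every air library, and every 72 h library was below both groups. The log2 fold change at 24 h was 0.39 ± 0.06 against air, with an adjusted p of 0.112 in edgeR (unadjusted p = 0.000182). Among the disulfide isomerases, the 4 log2 fold changes at 24 h lay between 0.15 ± 0.06 (P4hb, adjusted p = 0.328) and 0.24 ± 0.07 (Pdia4, adjusted p = 0.209), and the groups of 3 of these 4 genes did not overlap.

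**Figure D1:**
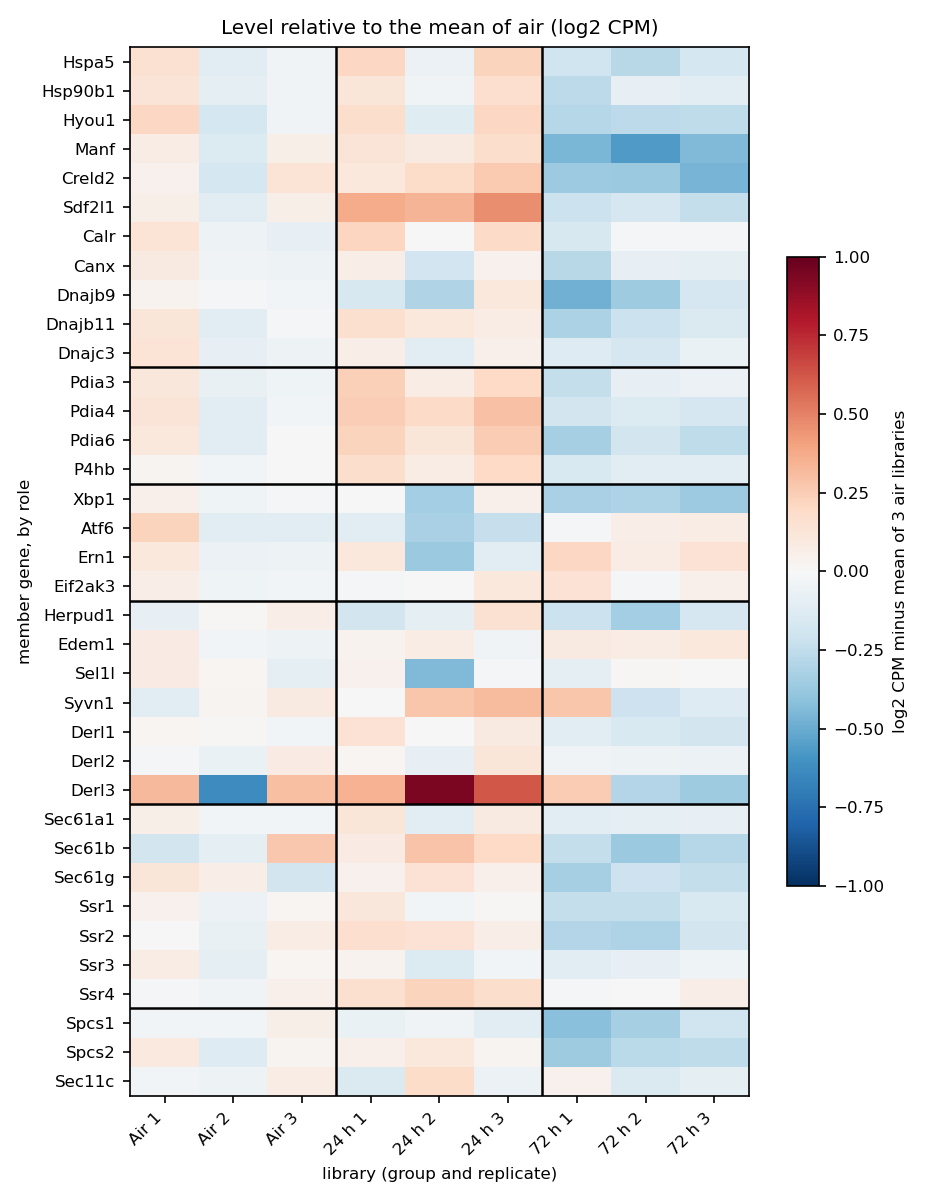
Level of each of the 36 genes (rows, in 6 blocks by role) in each of the 9 libraries (columns), as log2 CPM minus the mean of the 3 air libraries; red is above air and blue below, on a scale from -1 to 1. Chaperones, isomerases and translocon genes are mostly pale red at 24 h and blue at 72 h; Spcs1 is pale blue at 24 h, and Atf6, Ern1 and Edem1 are pale or above air at 72 h.

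The comparison of 72 h with 24 h asks how the macrophages changed between both times after ozone, and it held most of the calls. Of the 36 genes, 17 fell and 0 rose, beside 12.8% of all genes tested called lower and 5.39% called higher. Among genes averaging at least 10 CPM, the range that holds nearly all of the 36, 20.4% were called lower. The median log2 fold change of the 36 genes was -0.24, beside -0.03 over all genes, and 31 of them were below 0 (53.1% of all genes). All 72 h libraries lay below all 24 h libraries for 21 genes (22.7% of all genes tested) and above them for 2, Atf6 and Edem1 (15.0%). The calls covered 5 of 11 chaperones, 4 of 4 disulfide isomerases, 5 of 7 translocon genes and 2 of 3 signal peptidase genes. They covered 1 of 7 genes of ER-associated degradation and 0 of 4 sensors and transcription factors. Manf, Creld2, Sdf2l1, Pdia6 and Ssr2 were called lower in all 20 alternative analyses. All 17 genes had a negative fold change in each of these analyses. Each of the 17 had all 72 h libraries below all 24 h libraries, so leaving out libraries could hardly change that sign.

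The count depended on single libraries, and the share of all genes called lower moved as well. It was 13, 12 and 11 without air replicate 1, 2 and 3, beside 10.6%, 8.49% and 9.64% of all genes. Without 24 h replicate 1, 2 and 3 it was 6, 15 and 7, beside 4.83%, 9.36% and 6.88%. Without 72 h replicate 1, 2 and 3 it was 8, 5 and 9, beside 8.26%, 1.69% and 6.25%. With both marker-bearing libraries left out, 13 genes were called lower, 11 of them among the 17, beside 8.50% of all genes. Hyou1 and Xbp1 joined, and Pdia3, Dnajb11, Sec61b, Sec61g, Ssr4 and Spcs1 were no longer called.

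Among the 5 called chaperones, Manf, Sdf2l1 and Creld2 had the largest fold changes. Manf (chr9:106838312-106891979), a secreted and ER-resident factor that binds BiP, was at 97.2, 83.9 and 96.1 CPM in the air libraries, 101, 97.9 and 104 CPM at 24 h, and 67.3, 62.2 and 67.7 CPM at 72 h. The 72 h libraries were below all the others, and the 24 h libraries were above all air libraries. Between 24 h and 72 h Manf dropped by 34.8%, a log2 fold change of -0.62 ± 0.07 (edgeR adjusted p = 0.00406). Creld2 (chr15:88819646-88826683), an ER stress-inducible protein of the disulfide exchange machinery, was at 38.2, 32.6 and 40.5 CPM in the air libraries, 39.8, 42.0 and 44.4 CPM at 24 h, and 28.7, 28.6 and 26.8 CPM at 72 h. Its 72 h libraries were again the lowest, while air and 24 h overlapped. Creld2 dropped by 33.3% between both times (-0.58 ± 0.08, adjusted p = 0.00669). Sdf2l1, with the values given above, dropped by 34.0% (-0.60 ± 0.06, adjusted p = 0.00374).

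Hspa5 (chr2:34771970-34777547), which encodes BiP, the central HSP70 chaperone of the ER and a repressor of the sensors at rest, has 1 of the printed ERSE sites and was at 894, 744 and 787 CPM in the air libraries, 931, 774 and 939 CPM at 24 h, and 702, 664 and 715 CPM at 72 h. All 72 h libraries were below all 24 h libraries, but 24 h replicate 2 lay close to the lower air libraries. The log2 fold change of 72 h against 24 h was -0.34 ± 0.10, just inside the threshold (edgeR adjusted p = 0.0489). Of the 9 analyses with 1 library left out, only the one without 24 h replicate 2 still called Hspa5 (the highest adjusted p was 0.177), and without both marker-bearing libraries it was -0.42 ± 0.09 (adjusted p = 0.0259). Dnajb11, a J-domain co-chaperone of BiP, was at 134, 115 and 122 CPM in the air libraries, 138, 133 and 130.2 CPM at 24 h, and 99.3, 106 and 112 CPM at 72 h. Its 72 h libraries lay below every other library. It fell by 20.8% from 24 h to 72 h (-0.34 ± 0.07, adjusted p = 0.0174), and without both marker-bearing libraries the value was -0.28 ± 0.08 (adjusted p = 0.0538). The call of Dnajb11 was also lost without 24 h replicate 1 or 3 or 72 h replicate 1 or 2 (highest adjusted p 0.0792).

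The other 6 chaperones were not called by edgeR over the 9 libraries. Hsp90b1, with 2 ERSE sites in its window, was at 1129, 969.7 and 1008 CPM in the air libraries, 1125, 1007 and 1159 CPM at 24 h, and 863, 977 and 958 CPM at 72 h. Its 72 h libraries were below the 24 h libraries and reached into the range of air (-0.23 ± 0.09 against 24 h, adjusted p = 0.117). Hyou1, a large HSP70 relative that exchanges nucleotide on BiP, was at 271, 208 and 228 CPM in the air libraries, 265, 215 and 269.8 CPM at 24 h, and 192, 196 and 197 CPM at 72 h. Its 72 h libraries lay below all others, and air and 24 h overlapped. Its log2 fold change was -0.36 ± 0.11 (adjusted p = 0.0605), and -0.43 ± 0.11 without both marker-bearing libraries (adjusted p = 0.0373). DESeq2 also called Hyou1 lower at 72 h against 24 h, as it did 17.0% of all its genes. Calr, Canx, Dnajb9 and Dnajc3 had values between -0.22 ± 0.11 (Dnajb9) and -0.12 ± 0.08 (Dnajc3). The lectin chaperones Calr and Canx both carry an ERSE in the printed list.

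All 4 disulfide isomerases, which form and rearrange disulfide bonds, fell from 24 h to 72 h. Pdia6 (chr12:17266545-17284770) was at 346, 297 and 321 CPM in the air libraries, 374, 349 and 383 CPM at 24 h, and 255, 282 and 269 CPM at 72 h, so that 72 h lay below 24 h and air, and 24 h lay above air. It dropped by 27.0% (-0.45 ± 0.08, edgeR adjusted p = 0.00882). Pdia4 was at 266, 226 and 238 CPM in the air libraries, 288, 277 and 298 CPM at 24 h, and 214, 221 and 216 CPM at 72 h. The order of its 3 groups was the same, with no overlap between any of them. Its log2 fold change from 24 h to 72 h was -0.41 ± 0.07 (adjusted p = 0.00950); without 72 h replicate 2 alone it missed the threshold, at an adjusted p of 0.0529.

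P4hb, the classical protein disulfide isomerase and a subunit of prolyl hydroxylase, was at 665, 641 and 648 CPM in the air libraries, 738, 686 and 746 CPM at 24 h, and 585, 601 and 602 CPM at 72 h. Its 24 h libraries were the highest and its 72 h libraries the lowest, without overlap (-0.28 ± 0.06, adjusted p = 0.0206). It was called in 4 of the 9 analyses with 1 library left out, lost without 24 h replicate 1 or 3 or any 72 h library (highest adjusted p 0.0845). Pdia3, the isomerase that works with calnexin and calreticulin and in the loading of MHC class I, was at 759, 667 and 682 CPM in the air libraries, 826, 740.0 and 805 CPM at 24 h, and 594, 664 and 672 CPM at 72 h. The 72 h libraries lay below 24 h but reached into the range of air. Its value of -0.30 ± 0.09 (adjusted p = 0.0442) was called only without 24 h replicate 2 among those 9 analyses (highest adjusted p 0.167). Without both marker-bearing libraries it was -0.27 ± 0.08 (adjusted p = 0.0551).

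**Figure D2:**
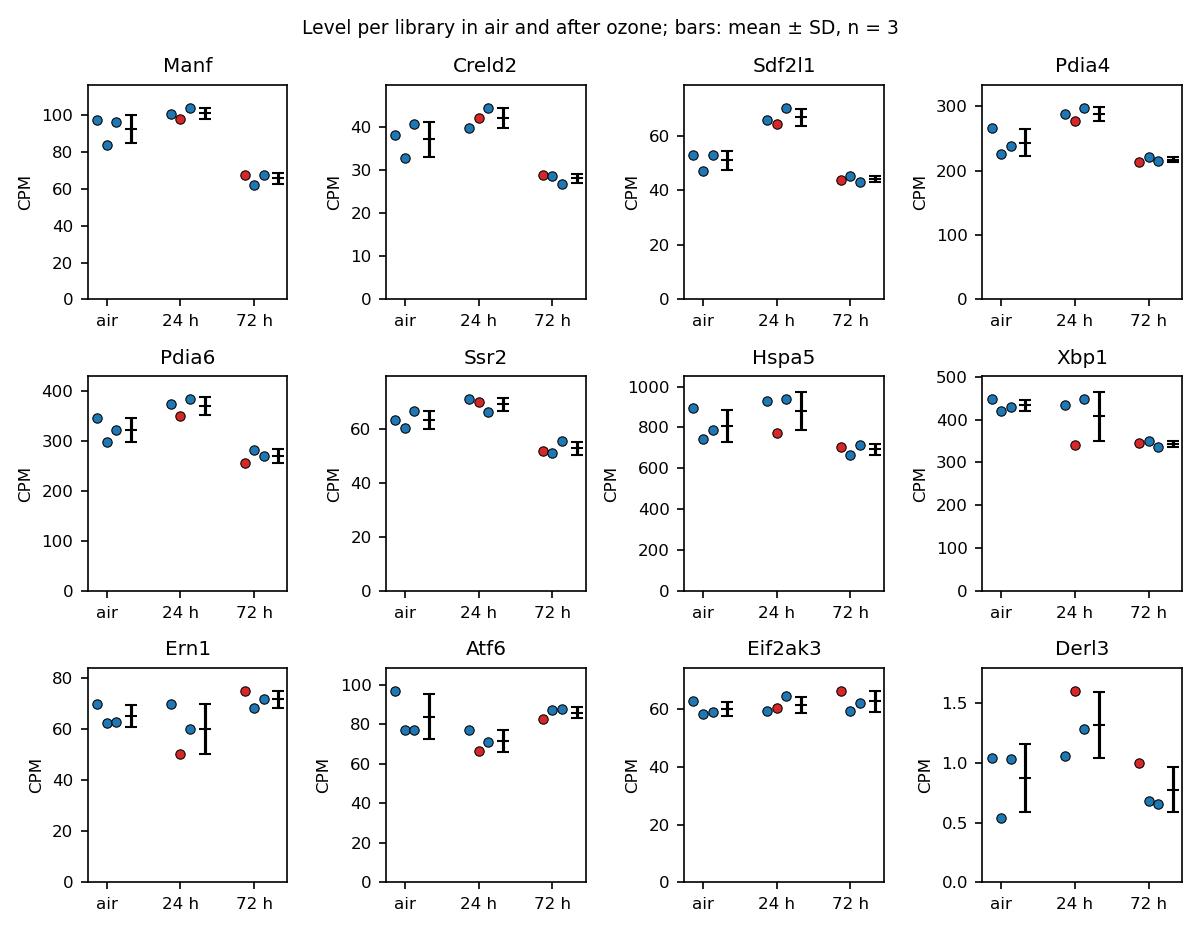
CPM of 12 of the genes in each library (points) for air, 24 h and 72 h, with mean ± SD of the 3 libraries of each group as a bar beside the points; all axes start at 0, and red points are 24 h replicate 2 and 72 h replicate 1. For Manf, Creld2, Sdf2l1, Pdia4, Pdia6 and Ssr2 all 72 h libraries lie below all other libraries, while the red 24 h point sits well below both others of its group for Hspa5, Xbp1 and Ern1.

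In the translocon, 5 of 7 genes fell from 24 h to 72 h. Ssr2 (chr3:88575876-88588419), the beta subunit of the translocon-associated protein complex, was at 63.2, 60.2 and 66.6 CPM in the air libraries, 71.1, 70.0 and 66.2 CPM at 24 h, and 51.8, 51.1 and 55.6 CPM at 72 h. Its 72 h libraries were below all others, and air and 24 h overlapped at the edge. It dropped by 23.5% (-0.39 ± 0.06, edgeR adjusted p = 0.00728). Sec61b, the beta subunit of the Sec61 channel, was at 36.7, 39.2 and 50.3 CPM in the air libraries, 44.0, 50.8 and 47.9 CPM at 24 h, and 35.3, 32.2 and 34.3 CPM at 72 h. All 72 h libraries were below all others, and air replicate 3 was as high as the 24 h libraries. Its log2 fold change was -0.49 ± 0.11 (adjusted p = 0.0230), against -0.45 ± 0.14 without both marker-bearing libraries (adjusted p = 0.0678). Leaving out any 1 of the 6 ozone libraries ended the call of Sec61b (highest adjusted p 0.103).

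Sec61g, the gamma subunit of the channel, was at 18.6, 17.8 and 15.1 CPM in the air libraries, 17.6, 18.9 and 17.7 CPM at 24 h, and 13.5, 14.8 and 14.5 CPM at 72 h. The 72 h libraries were again the lowest, and air and 24 h overlapped. It changed by -0.34 ± 0.09 (adjusted p = 0.0317), and by -0.25 ± 0.11 without both marker-bearing libraries (adjusted p = 0.136). The call of Sec61g ended without any 1 of the 6 ozone libraries or air replicate 2 (highest adjusted p 0.0909). Ssr1, the alpha subunit of the translocon-associated complex, was at 213, 198 and 209 CPM in the air libraries, 223, 203 and 209 CPM at 24 h, and 175, 176 and 186 CPM at 72 h. All 72 h libraries were below all others (-0.24 ± 0.06, adjusted p = 0.0291). That of Ssr1 ended without air replicate 3, 24 h replicate 1 or 3 or any 1 of the 72 h libraries (highest adjusted p 0.120). Ssr4, the delta subunit, was at 75.2, 73.9 and 78.8 CPM in the air libraries, 84.8, 88.8 and 85.9 CPM at 24 h, and 74.9, 75.8 and 79.5 CPM at 72 h, so its 24 h libraries stood above both other groups. Its change of -0.17 ± 0.05 from 24 h to 72 h (adjusted p = 0.0423) was called in 0 of the 9 analyses with 1 library left out, where the highest adjusted p was 0.141.

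The channel's alpha subunit Sec61a1 and the gamma subunit Ssr3 were not called, at -0.13 ± 0.07 (adjusted p = 0.248) and -0.04 ± 0.07 (adjusted p = 0.762). Of the signal peptidase, Spcs1 was at 72.5, 72.7 and 77.0 CPM in the air libraries, 70.8, 72.1 and 68.5 CPM at 24 h, and 55.4, 58.7 and 64.4 CPM at 72 h. Its 72 h libraries were below all air and all 24 h libraries. Spcs1 changed by -0.24 ± 0.06 from 24 h to 72 h (edgeR adjusted p = 0.0305), and by -0.16 ± 0.07 without both marker-bearing libraries (adjusted p = 0.146). Of the 9 analyses with 1 library left out, only the one without 72 h replicate 3 still called Spcs1 (highest adjusted p 0.122). Spcs2, another accessory subunit, was at 144, 123 and 137 CPM in the air libraries, 139.7, 145 and 137 CPM at 24 h, and 105, 112 and 113 CPM at 72 h, again with 72 h below all others. It dropped by 21.8% (-0.35 ± 0.07, adjusted p = 0.0119), and missed the threshold without 24 h replicate 1 or 72 h replicate 2 (highest adjusted p 0.0588). Sec11c, a catalytic subunit, overlapped between all groups, with -0.06 ± 0.09 (adjusted p = 0.692).

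Of the genes of ER-associated degradation only Derl1, a derlin of the retrotranslocation complex, passed the test. Derl1 was at 186, 185 and 180.2 CPM in the air libraries, 203, 185 and 195 CPM at 24 h, and 170.3, 165 and 162 CPM at 72 h, and its 72 h libraries were below all others (-0.23 ± 0.06, edgeR adjusted p = 0.0261). The call was lost without air replicate 3, 24 h replicate 1 or 3, or 72 h replicate 2 or 3 (highest adjusted p 0.104). Herpud1, a stress-inducible scaffold of the ubiquitin ligase, and Syvn1, the ligase HRD1 itself, stood at -0.21 ± 0.09 (adjusted p = 0.156) and -0.21 ± 0.14 (adjusted p = 0.347). Sel1l, the partner of HRD1, was at 274 to 310.0 CPM in air and at 216 to 301 CPM at 24 h, where the low value was in replicate 2. Its log2 fold change was 0.10 ± 0.12 (adjusted p = 0.627). Edem1, a lectin that passes misfolded glycoproteins on, ran from 262 to 282 CPM at 24 h to 283 to 289.6 CPM at 72 h (0.07 ± 0.06, adjusted p = 0.488). Derl2 was within its spread, at -0.07 ± 0.06 (adjusted p = 0.462).

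Derl3 was near 1 CPM in every library, at 1.04, 0.541 and 1.03 CPM in the air libraries, 1.06, 1.61 and 1.29 CPM at 24 h, and 0.995, 0.681 and 0.652 CPM at 72 h. The highest value was in 24 h replicate 2, and the highest at 72 h was in replicate 1, the marker-bearing libraries. That 72 h library was still below air replicates 1 and 3. Whether other cells gave Derl3 RNA was not tested. Its log2 fold change had the widest error of the 36 genes (-0.76 ± 0.32, adjusted p = 0.129), and without both libraries it was -0.79 ± 0.34 (adjusted p = 0.142).

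None of the 4 sensors and transcription factors passed edgeR's test in any comparison over the 9 libraries. Ern1, which encodes the kinase and endonuclease IRE1 that splices Xbp1 RNA, was at 69.9, 62.4 and 62.6 CPM in the air libraries, 69.8, 50.3 and 59.9 CPM at 24 h, and 75.0, 68.2 and 71.6 CPM at 72 h. Air overlapped both ozone groups, and 24 h replicate 1 reached into the 72 h range. Its log2 fold change from 24 h to 72 h was 0.26 ± 0.11 (edgeR adjusted p = 0.144) and was 0.13 ± 0.09 without both marker-bearing libraries (adjusted p = 0.350). Atf6, the membrane-bound transcription factor released by cleavage in the Golgi, was at 97.1, 77.3 and 77.2 CPM in the air libraries, 77.3, 66.5 and 71.2 CPM at 24 h, and 82.7, 87.3 and 87.6 CPM at 72 h. All 72 h libraries were above all 24 h libraries, and air overlapped both (0.26 ± 0.10, adjusted p = 0.0969). Eif2ak3, encoding PERK, the kinase that slows translation, was at 62.8, 58.1 and 59.0 CPM in the air libraries, 59.0, 60.2 and 64.4 CPM at 24 h, and 66.3, 59.2 and 62.1 CPM at 72 h. These groups overlapped throughout (0.03 ± 0.06, adjusted p = 0.779).

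Xbp1, whose spliced form drives the secretory programme, was at 447, 421 and 430.3 CPM in the air libraries, 433, 341 and 448 CPM at 24 h, and 346, 349 and 336 CPM at 72 h. Counts per gene do not separate its spliced from its unspliced RNA. The 72 h libraries were below all air libraries, and 24 h replicate 2 lay among the 72 h libraries. Xbp1 was at -0.24 ± 0.10 against 24 h (adjusted p = 0.124) and at -0.33 ± 0.10 against air (edgeR adjusted p = 0.0847). DESeq2 called Xbp1 lower at 72 h against air, in a test that called 7.42% of all its genes lower. With 24 h replicate 2 and 72 h replicate 1 left out, both comparisons passed the test, at -0.34 ± 0.07 (adjusted p = 0.0181) and -0.31 ± 0.06 (adjusted p = 0.0233).

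**Figure D3:**
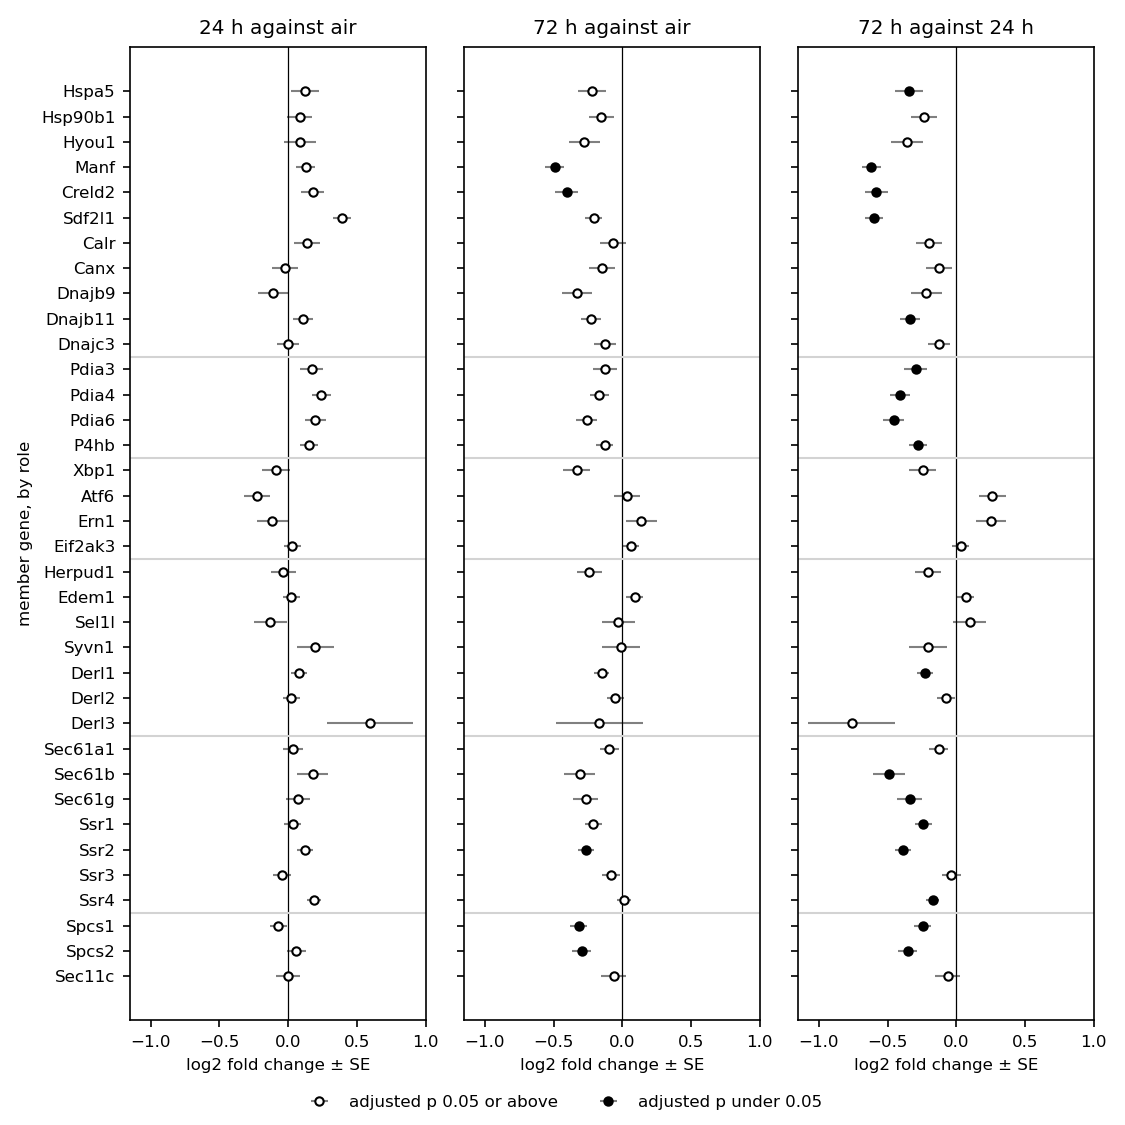
Log2 fold change (point) with its SE (line) of each of the 36 genes, by role, with the 24 h and the 72 h libraries set against air and then against each other; filled points have an edgeR adjusted p under 0.05. There are 0, 5 and 17 filled points in the panels from left to right, all of them below 0.

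Against air, 72 h after ozone, 5 of the 36 genes fell and 0 rose, beside 3.77% of all genes tested called lower and 1.71% called higher, or 5.47% in either direction (6.35% lower among genes averaging at least 10 CPM). They were the chaperone factors Manf and Creld2, the translocon gene Ssr2 and the signal peptidase genes Spcs1 and Spcs2. The log2 fold change was below 0 for 31 genes (51.0% of all genes), with a median of -0.16 beside -0.01 over all genes. All 72 h libraries lay below all air libraries for 21 genes, beside 22.1% of all genes tested, and above them for 0, beside 17.5%. This comparison shares its 72 h libraries with the one above, so both rest in part on the same values.

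Manf fell by 28.8% against air (-0.49 ± 0.07, edgeR adjusted p = 0.0186) and Creld2 by 24.4% (-0.40 ± 0.08, adjusted p = 0.0346). The other 3 were Spcs1 at -0.32 ± 0.06 (adjusted p = 0.0326), Spcs2 at -0.30 ± 0.07 (adjusted p = 0.0442) and Ssr2 at -0.26 ± 0.06 (adjusted p = 0.0414). Hspa5 was at -0.22 ± 0.10 against air (adjusted p = 0.218), with all 72 h libraries below all air libraries. The 4 isomerases lay between -0.26 ± 0.08 (Pdia6, adjusted p = 0.0838) and -0.13 ± 0.09 (Pdia3, adjusted p = 0.374), and Sdf2l1 at -0.21 ± 0.06 (adjusted p = 0.0862). Single libraries decided this count: it was 0 without air replicate 3, 24 h replicate 1 or any 1 of the 72 h libraries, 1 (Manf) without air replicate 1, air replicate 2 or 24 h replicate 3, and 6 without 24 h replicate 2. The share of all genes called lower was 5.11% without 24 h replicate 2 and between 0% and 0.875% without any other single library. With both marker-bearing libraries left out, 3 genes were called (Manf, Creld2 and Xbp1), beside 2.66% of all genes called lower.

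A joint test of all 3 groups called 10 of the 36 genes (Manf, Creld2, Sdf2l1, Pdia4, Pdia6, P4hb, Dnajb11, Ssr2, Spcs1 and Spcs2), beside 13.2% of all genes tested. Leaving out 1 library gave 6 without air replicate 3, 4 without 24 h replicate 3, 2 without 72 h replicate 1 and 0 without 24 h replicate 1, 72 h replicate 2 or 72 h replicate 3. The share of all genes called was 7.95%, 5.06%, 2.44%, 0.413%, 0.0891% and 0.314% in these fits, in that order. The 36 genes together took 0.861% to 0.960% of the counts in air, 0.911% to 1.00% at 24 h and 0.815% to 0.850% at 72 h. The median of the 36 genes, as log2 CPM against the mean of air, was 0.11, 0.0067 and 0.10 in the 24 h libraries and -0.21, -0.17 and -0.15 in the 72 h libraries. In air these medians were 0.07, -0.06 and -0.01.

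Most of the 36 genes varied together over the 9 libraries, which hold the group differences as well as depth and cell makeup. Pearson's r of log2 CPM was above 0 for 482 of the 630 pairs, with a median of 0.55, given here as a description. Hspa5 varied most closely with Hyou1 (r = 0.976), and Manf with Creld2 (r = 0.961), Ssr2 (r = 0.954) and Spcs2 (r = 0.947). The median r with the other genes was below 0 for Edem1 (-0.398), Ern1 (-0.354), Atf6 (-0.316), Eif2ak3 (-0.0716) and Sel1l (-0.0640).

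Other genes of the same route, in 6 lists with 90 tested genes, gave 33 lower and 1 higher (Sec61a2) at 72 h against 24 h, 15 lower at 72 h against air, and 0 in either direction at 24 h against air. Over all genes tested, the shares called lower were 12.8% against 24 h (20.4% of genes averaging at least 10 CPM) and 3.77% against air (6.35%). The oligosaccharyltransferase, which adds N-glycans to entering proteins, had 8 of 12 genes lower at 72 h against 24 h and 2 of 12 lower against air. Its named genes were Dad1 (-0.45 ± 0.06, edgeR adjusted p = 0.00610), Rpn1 (-0.37 ± 0.06, adjusted p = 0.00728) and Ostc (-0.39 ± 0.06, adjusted p = 0.00795). Dad1 averaged 73.3 ± 4.35 CPM (SD, n = 3) in air, 76.8 ± 3.58 CPM at 24 h and 56.4 ± 2.10 CPM at 72 h. Genes of glycoprotein and oxidative folding gave 9 of 23 lower against 24 h and 2 of 23 against air. The prolyl isomerase Fkbp2 led them, with 41.9 ± 0.954 CPM in air, 48.0 ± 1.26 CPM at 24 h and 33.8 ± 1.46 CPM at 72 h (-0.50 ± 0.05, adjusted p = 0.00372). The glucosidase Mogs (-0.48 ± 0.06, adjusted p = 0.00520) and the BiP exchange factor Sil1 (-0.35 ± 0.06, adjusted p = 0.00900) followed.

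Further translocon and signal recognition genes gave 8 of 15 lower at 72 h against 24 h and 5 of 15 lower against air. Srp14, Srp68 and Sec11a were at -0.35 ± 0.06, -0.24 ± 0.05 and -0.26 ± 0.05 against air (edgeR adjusted p = 0.0236, 0.0301 and 0.0327). Sec11a, like Sec11c, encodes a catalytic subunit of the signal peptidase, and Sec11c was not called. Further genes of ER-associated degradation gave 4 of 18 and 2 of 18 lower, led by the selenoproteins Selenos (-0.36 ± 0.06 against 24 h, adjusted p = 0.00795) and Selenok (-0.25 ± 0.05, adjusted p = 0.0175), then the conjugating enzyme Ube2j2 (-0.26 ± 0.06, adjusted p = 0.0231). Of other sensors and proteases, 2 of 10 were lower against 24 h, the ATF6 relative Atf6b (-0.28 ± 0.08, adjusted p = 0.0430) and the apoptosis effector Bax (-0.22 ± 0.07, adjusted p = 0.0459). The shares of 4 of 18 (22.2%) and 2 of 10 (20.0%) were near the 20.4% of all genes averaging at least 10 CPM.

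The PERK branch and ATF4 targets had 4 of 12 tested genes lower at 72 h against air (Atf4, Trib3, Asns and Atf5) and 2 of 12 lower against 24 h. Of all genes tested, 3.77% were lower against air. Against 24 h the 16.7% of this list lay between 12.8% of all genes and 20.4% of those averaging at least 10 CPM. Atf4, the transcription factor whose translation PERK raises, averaged 125 ± 5.74 CPM (SD, n = 3) in air, 115 ± 1.73 CPM at 24 h and 88.9 ± 1.14 CPM at 72 h. It changed by -0.50 ± 0.05 at 72 h against air (edgeR adjusted p = 0.00480) and by -0.37 ± 0.05 against 24 h (adjusted p = 0.00609). Its relative Atf5 changed by -1.16 ± 0.18 against air (adjusted p = 0.0234), and Asns, asparagine synthetase and an ATF4 target, by -0.99 ± 0.16 (adjusted p = 0.0238). From 6.79 ± 1.04 CPM in air, the mean of Asns came to 3.41 ± 0.0587 CPM at 72 h.

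**Figure D4:**
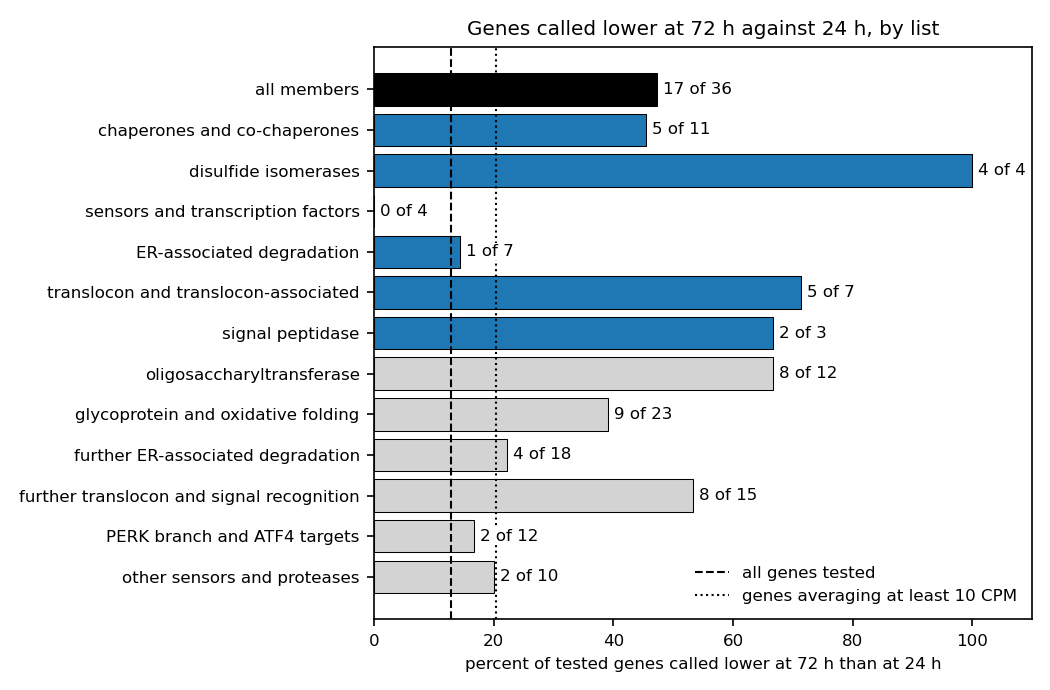
Percent of tested genes called lower at 72 h against 24 h (edgeR adjusted p under 0.05) for all 36 genes (black), for each of their 6 roles (blue) and for 6 lists of other genes of the route (grey), with counts beside the bars. The dashed line is the share among all genes tested (12.8%) and the dotted line that among genes averaging at least 10 CPM (20.4%); disulfide isomerases are at 4 of 4 and sensors at 0 of 4.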

How the data were processed

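RNA of 9 mouse lung macrophage samples (3 in air, 3 at 24 h and 3 at 72 h after ozone) was sequenced from stranded total RNA libraries, with RNA integrity numbers of 8.8 or more, per the labels' protocols. The submitters' processing notes name Trimmomatic 0.39, FastQC, Salmon, DESeq2 and GRCm38.p6; their settings and the use of strand are not in the labels. The authors deposited estimated counts per gene, of which 80.5% were whole numbers, and these were rounded. Sums per library were 47095448 to 60248252. Intervals were not computed from depth, since replicate spread sets the error.

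GENCODE M21 gave symbols for 54107 of 54281 identifiers (53544 with the same version), and 174 had none. Ddit3 had 2 identifiers, and the one with more counts was used. Genes were filtered with filterByExpr and scaled by TMM, and 1 quasi-likelihood model (edgeR 4.0.16, robust, R 4.3.3) was fitted to all 9 libraries, since the groups share 1 estimate of the spread. The contrasts were 24 h and 72 h against air, 72 h against 24 h and a joint test. P-values were adjusted by Benjamini-Hochberg over 15713 genes, with 0.05 as the threshold; SE was the fold change over the root of F. The script was tested on simulated counts. DESeq2 1.42.0 and limma 3.58.1 were alternatives, with other scalings, filters, a replicate block and left-out libraries. The labels give 3 mice a group and do not say whether each library is 1 mouse, so p-values measure the spread between these samples. With 3 against 3, an exact permutation test cannot go below 0.1. Counts of sample pairs of 1 group differed beyond sampling noise in every pair. Same-numbered samples did not deviate together throughout (correlations from -0.543 to 0.414), and the reported model pairs none. The highest correlation, 0.682, was between the marker-bearing libraries 24 h replicate 2 and 72 h replicate 1. With such libraries present, this check cannot exclude a pairing. The 36 genes and all lists were chosen with earlier results of these data known. Every library's value is printed for each gene called by edgeR over the 9 libraries, for Hyou1 (added after its values were seen) and for Hspa5, Hsp90b1, Xbp1, Pdia4, Sdf2l1, Creld2, Derl3, Ern1, Atf6 and Eif2ak3; of the other lists, up to 3 called genes with the smallest p are named. The listed genes Stc2, Vldlr and Ern2 did not pass the filter. The sums of the 7 airway secretory cell markers were 91.8 to 133 CPM in air, 88.2 to 148 CPM at 24 h and 79.4 to 95.1 CPM at 72 h.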

Additional observations from a re-analysis of the deposited data

Results flagged for a closer look

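For 17 of the 36 genes, the change from air at 72 h differed from the change from air at 24 h. The test of that difference is the comparison of 72 h with 24 h (edgeR adjusted p under 0.05). These are the same 17 calls as above and add no further evidence. Of all genes tested, 12.8% were called lower and 5.39% higher in that comparison. The difference of the log2 changes was -0.62 for Manf, -0.60 for Sdf2l1 and -0.58 for Creld2. It was -0.49 for Sec61b, -0.45 for Pdia6, -0.41 for Pdia4 and -0.39 for Ssr2. Spcs2 had -0.35, while Hspa5, Sec61g and Dnajb11 had -0.34 each. The differences of Pdia3 and P4hb were -0.30 and -0.28. Spcs1, Ssr1, Derl1 and Ssr4 had -0.24, -0.24, -0.23 and -0.17. For Sdf2l1, Pdia4, Pdia6 and P4hb, the 24 h libraries all lay above air and the 72 h libraries all lay below air. The 24 h libraries of Manf also lay above air, and its 72 h libraries below air. Among all genes tested, 10.4% had all 24 h libraries above air, and 22.1% had all 72 h libraries below air. The share with both was not computed.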

How the results depend on the processing

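No alternative reversed the direction of a called gene: of 440 values of called genes, 257 stayed on their side of the threshold and 183 missed it. The 72 h libraries of each called gene all lay below all libraries of the other group. Leaving out libraries could therefore hardly reverse a direction. For 72 h against 24 h (17 called), upper quartile scaling gave 10, no filter on low counts 9, a fit of only the 6 libraries compared 10, and the replicate block 8. For 72 h against air (5 called), DESeq2 size factors gave 3, upper quartile scaling 1, no filter 2, a filter of at least 1 CPM in 3 libraries 2, the DESeq2 test 8 and the replicate block 1. The share of all genes called moved with these counts. In the comparison of both ozone times the share called lower was 12.8% in the reported fit, then 8.29%, 4.07%, 9.27% and 7.14% in the order given. For 72 h against air it was 3.77%, then 1.79%, 0.681%, 0.497%, 2.03%, 7.42% and 0.0255%. Without both marker-bearing libraries, or without these and air replicate 2, both chosen after seeing the data, the count against air was 3 each time (2.66% and 0.537% of all genes). At 24 h the DESeq2 test called 3 (4.72% of all genes in either direction). The joint test (10 called) gave 6 with upper quartile scaling, 18 with DESeq2, 2 with the replicate block and 6 without the marker-bearing libraries and air replicate 2, beside 9.50%, 22.6%, 0.675% and 4.63% of all genes (13.2% in the reported fit). The median log2 fold change of the 36 genes moved with upper quartile scaling to -0.106 at 72 h against air and to -0.179 between both ozone times, and to -0.113 (72 h against air) with the 1 CPM filter. Leaving out 1 library gave 5 to 15 calls for 72 h against 24 h, 0 to 6 for 72 h against air and 0 to 13 in the joint test, with medians from -0.270 to -0.190 and from -0.219 to -0.121. Those fits hold fewer samples, and the cause of none of these changes was tested. In the block, replicate numbers were fitted although a pairing by number was not shown, and no sample set correlated best with its own number throughout. Each group held 3 libraries, the log2 changes were mostly under 0.5, and these genes except Derl3 were counted deeply. What limited the calls was not tested.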
